A study of Mus musculus with 124 samples.

Results

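The transcriptomes of control mouse oocytes and control mouse blastocysts were compared, that is, the egg just before fertilisation against the embryo just before implantation. The members are 6 of the series' oocyte RNA libraries and 28 of its blastocyst RNA libraries, all labelled Ctrl, or 34 of 124 samples in all, and the 17947 gene symbols found in both tables. The series studies ovulation triggered by human chorionic gonadotropin (hCG), and none of the hCG libraries was used. Per the labels, Ctrl females in estrus were housed with a vasectomised male, and their ovulated metaphase II oocytes, collected the next morning, were freed of cumulus by hyaluronidase. The blastocysts are uterine flushings of embryonic day 3.5. Genotype is given only as Ctrl, and strain and the mating that gave the blastocysts are not given in the sources used here. The labels do not say whether libraries come from separate animals, so every spread given here is a spread between libraries, which may be partly technical.

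A fully grown oocyte stops transcription and lives on stored messenger RNA, which is translated, silenced or destroyed on a timetable around meiotic division and fertilisation. The embryo then replaces this maternal store with RNA from its own genome and sorts its cells into an outer epithelium, the trophectoderm, and an inner cell mass that holds the later embryo and the primitive endoderm. Trophectoderm cells seal their junctions and pump fluid inward to make the blastocyst cavity. The RNA measured is polyA RNA per the labels, from Smart-seq2, a full-length method for very small inputs. In a whole blastocyst, fewer cells of a type and less RNA per cell cannot be told apart.

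Total depth was 2375645 to 6910882 counts in oocyte libraries and an estimated 3043231 to 10859379 reads in blastocyst libraries. Between 11153 and 12568 shared symbols were detected in oocytes and between 9883 and 12774 in blastocysts. Libraries of 1 stage resembled each other (median r of log2(CPM + 1) with the other libraries of the stage 0.962 to 0.976 in oocytes and 0.807 to 0.924 in blastocysts). Pairs across stages had a median r of 0.182. Each r is over genes, which are not independent replicates. Only symbols above a minimum mean of log2(CPM + 1) across the libraries of both stages entered, and most of these libraries are blastocysts. Symbols high only in oocytes thus needed a higher level to enter than symbols high only in blastocysts. Blastocyst libraries 12 and 26 stood apart, with the lowest similarity to the others and the fewest detected symbols. Without them 2465 symbols were called higher and 1671 lower, against 2264 and 1691 with them.

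Values are in counts-per-million units (CPM) over the shared symbols, not corrected for gene length, so each gene is compared with itself across stages and levels of different genes are not ranked. A difference is the blastocyst mean minus the oocyte mean of log2(CPM + 1), and it understates the change of genes that are low in 1 stage. Because stage coincides with the table and the tables were made separately, no significance test across stages was run. A symbol was called where the difference was at least 3, an 8-fold change, and no oocyte library overlapped any blastocyst library. The table a library came from cannot be told apart from its stage in any value below.

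By this rule 2264 symbols (12.6% of those compared) were higher in blastocysts and 1691 (9.42%) were lower. Symbols called lower took 49.7% to 51.1% of shared reads in oocytes and 1.65% to 2.33% in blastocysts. Symbols called higher took 1.205% to 1.44% in oocytes and 49.2% to 58.8% in blastocysts. These shares follow from the selection and are descriptions. The median difference over all shared symbols was 0.02.

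**Figure D1:**
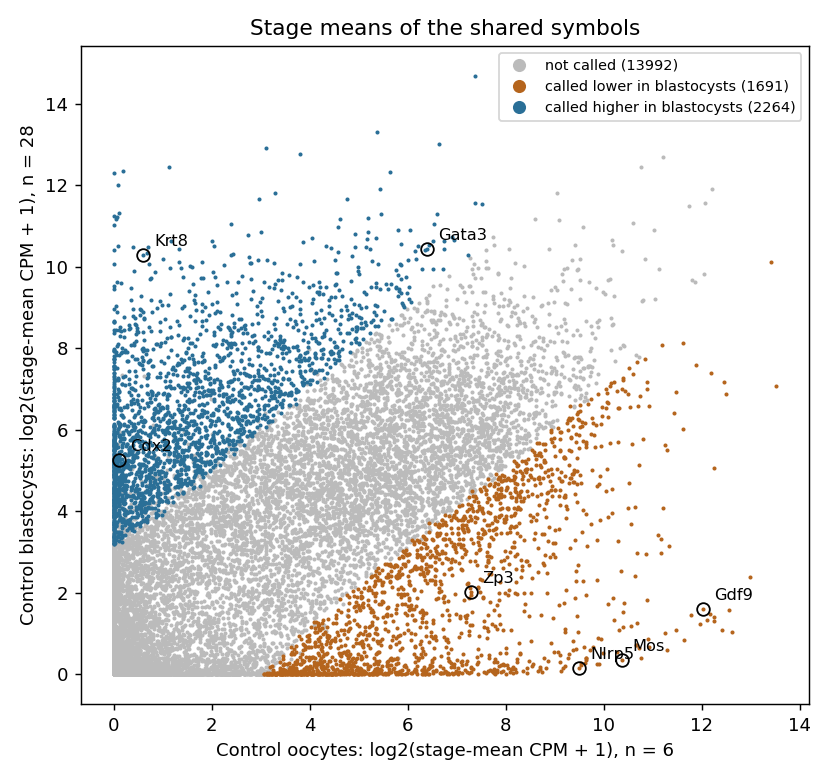
Each point is 1 of the 17947 shared symbols, with log2 of the oocyte stage-mean CPM + 1 (n = 6) on the horizontal axis and of the blastocyst stage-mean CPM + 1 (n = 28) on the vertical axis. Blue points are the 2264 symbols called higher and brown points the 1691 called lower, with the 7 marker genes ringed.

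The 7 marker genes followed the stage labels in all 34 libraries. Gdf9, a growth factor that the oocyte secretes to its follicle cells, was at 3291 to 5512 CPM (median 3985) in oocytes and 0 to 4.43 CPM (median 2.17) in blastocysts, or 4160.1 ± 815 and 2.03 ± 1.34 (mean ± SD, n = 6 and 28). Mos, the kinase that holds the egg at metaphase II, was at 1139.5 to 1553 CPM (median 1272) in oocytes and 0 to 0.718 CPM (median 0.249) in blastocysts. Nlrp5, a part of the subcortical maternal complex, was at 540.3 to 1151 CPM (median 666) in oocytes and 0 to 0.779 CPM (median 0) in blastocysts. These 3 genes were high in every oocyte and under 5 CPM in every blastocyst. Zp3, a sperm-binding protein of the zona pellucida, was at 101 to 275 CPM (median 140.5) in oocytes and 0 to 11.04 CPM (median 2.62) in blastocysts, with a difference of -5.53.

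Krt8, a keratin of simple epithelia, was at 0 to 2.20 CPM (median 0) in oocytes and 380.3 to 3735 CPM (median 1054) in blastocysts. Gata3, a trophectoderm transcription factor, was at 25.4 to 133 CPM (median 90.05) in oocytes and 372 to 2790.5 CPM (median 1228) in blastocysts, so its RNA was already measurable in oocytes but 4.02 lower there on the log2 scale. Cdx2, the transcription factor that sets trophectoderm fate, was at 0 to 0.500 CPM (median 0) in oocytes and 9.45 to 114 CPM (median 30.8) in blastocysts. Its oocyte value rests on 2 counts in all, giving a ratio of 474 with a 95% Poisson interval from 131 to 3910.1, which covers counting error only. With a pseudocount of 5 its difference was 2.90 and it was not called. No oocyte library overlapped a blastocyst library for any of the 7 markers.

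**Figure D2:**
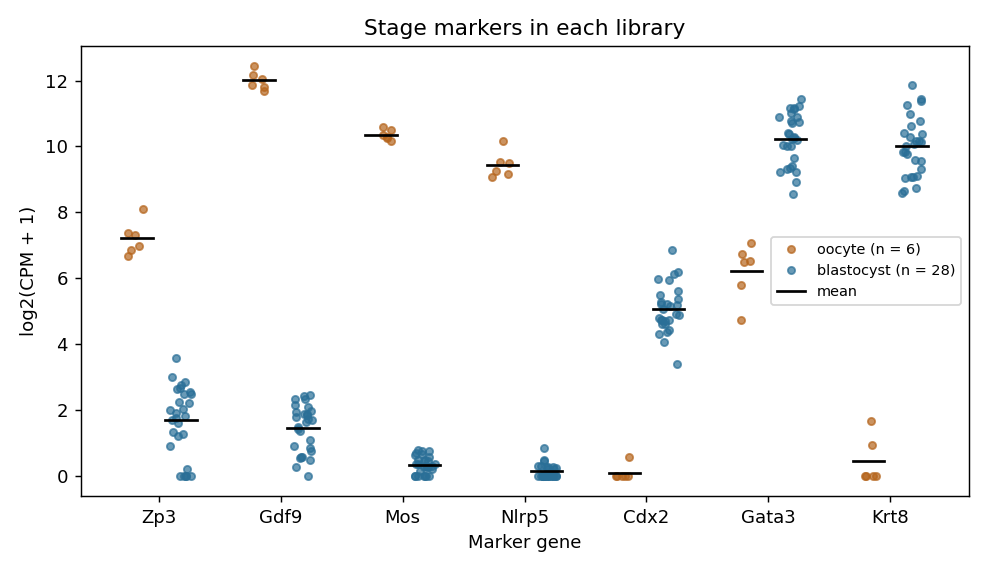
Each point is a library, with log2(CPM + 1) on the vertical axis for the 7 marker genes, oocytes in brown (n = 6) and blastocysts in blue (n = 28), and the bar is the stage mean. Zp3, Gdf9, Mos and Nlrp5 are above all blastocysts in every oocyte, and Cdx2, Gata3 and Krt8 are above all oocytes in every blastocyst.

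Promoter sequence is shown for 4 of the marker genes and for Oosp1 and Krt18, which are among the largest changes. Each is the 250 bases before the most upstream RefSeq start on build GRCm38.p6, written in the direction of transcription, with the hexamer CAGGTG or its reverse complement CACCTG in capitals. CAGGTG is 1 form of the E-box that basic helix-loop-helix factors can bind. The windows are Zp3 at chr5:135979855-135980104 on the plus strand, Oosp1 at chr19:11691052-11691301 on the minus strand, Nlrp5 at chr7:23385639-23385888 on the plus strand, Cdx2 at chr5:147307250-147307499 on the minus strand, Krt8 at chr15:102004343-102004592 on the minus strand and Krt18 at chr15:102027966-102028215 on the plus strand. Gdf9 and Mos have no entry in the promoter table. The windows of the marker Gata3 and of Bmp15 hold no match and are not shown. The genes were chosen after their values were seen.
Zp3: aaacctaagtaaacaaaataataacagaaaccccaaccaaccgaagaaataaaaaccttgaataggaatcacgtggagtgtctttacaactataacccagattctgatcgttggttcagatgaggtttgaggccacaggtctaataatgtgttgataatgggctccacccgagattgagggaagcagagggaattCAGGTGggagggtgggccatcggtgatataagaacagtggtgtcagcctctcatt
Oosp1: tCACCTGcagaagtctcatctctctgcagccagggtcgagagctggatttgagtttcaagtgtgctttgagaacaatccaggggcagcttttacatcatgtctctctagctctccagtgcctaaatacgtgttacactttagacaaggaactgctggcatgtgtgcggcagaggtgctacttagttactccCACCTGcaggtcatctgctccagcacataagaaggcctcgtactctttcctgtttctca
Nlrp5: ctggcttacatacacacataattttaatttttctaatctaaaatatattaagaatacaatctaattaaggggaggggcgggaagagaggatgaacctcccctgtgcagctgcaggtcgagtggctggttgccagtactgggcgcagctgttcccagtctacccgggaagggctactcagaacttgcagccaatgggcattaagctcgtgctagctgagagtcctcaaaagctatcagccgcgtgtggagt
Cdx2: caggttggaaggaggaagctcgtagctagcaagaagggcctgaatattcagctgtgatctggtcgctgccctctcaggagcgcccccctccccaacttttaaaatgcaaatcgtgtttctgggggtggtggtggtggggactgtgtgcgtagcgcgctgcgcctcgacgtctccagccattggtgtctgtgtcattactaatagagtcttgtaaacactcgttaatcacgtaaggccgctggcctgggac
Krt8: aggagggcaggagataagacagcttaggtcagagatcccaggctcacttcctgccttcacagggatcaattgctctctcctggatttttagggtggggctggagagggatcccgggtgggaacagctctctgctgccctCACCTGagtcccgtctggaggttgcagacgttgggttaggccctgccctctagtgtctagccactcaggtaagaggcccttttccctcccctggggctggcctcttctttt
Krt18: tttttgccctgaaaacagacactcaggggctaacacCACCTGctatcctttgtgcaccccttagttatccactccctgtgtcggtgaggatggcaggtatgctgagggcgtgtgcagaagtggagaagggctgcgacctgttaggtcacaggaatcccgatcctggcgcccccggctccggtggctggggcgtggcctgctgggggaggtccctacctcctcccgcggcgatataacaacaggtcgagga

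Counted from the start, the match of Zp3 begins at base -55, that of Krt8 at -111 and that of Krt18 at -214, while Oosp1 holds 2 matches and Nlrp5 and Cdx2 none. The Nlrp5 and Zp3 windows hold 7 and 5 CpG dinucleotides, the Cdx2 window 13 and the Krt8 window 3. On either strand the hexamer was in 17.1% of all 27025 windows of the table, and in 14.97% of the windows of symbols called higher. Among the lists with a window for at least 80% of members, the share ran from 0 of 20 for glycolysis to 8 of 20 for maternal effect genes and likewise for trophectoderm epithelium. The hexamer was in 20.4% of the windows of symbols called lower and in 16.6% of those of all shared symbols. A window exists for 79.6% and 78.5% of these symbols, so the shares cover only part of them. The count over the zona list was void, as 58.3% of its members have a window. The matches are descriptions of the sequence and not binding sites.

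Genes for the zona pellucida and for proteins that the oocyte secretes were nearly all lower in blastocysts. Of 12 list members 10 were called lower and 1 higher (8.33% higher and 83.3% lower, against 12.6% and 9.42% of all symbols). The median difference was -6.97, or -9.82 as the log2 ratio of stage means with genes at 0 set to a floor of 3 counts over the stage. Bmp15, the partner of Gdf9, was at 1638 to 2678 CPM (median 1747) in oocytes and 0 to 3.26 CPM (median 0.226) in blastocysts. Oosp1, an oocyte-secreted protein of unsettled function, was at 1943 to 2957 CPM (median 2635) in oocytes and 0 to 1.96 CPM (median 0.420) in blastocysts. For both the lowest oocyte stood far above the highest blastocyst.

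The zona genes Zp1 and Zp2 had medians of 71.7 CPM in oocytes and 0 CPM in blastocysts, and 55.4 CPM in oocytes and 0.313 CPM in blastocysts, respectively, with differences of -6.11 and -5.04. Astl, which encodes the ovastacin protease that cleaves ZP2 after fertilisation, had 284 CPM in oocytes and 0 CPM in blastocysts. Izumo1r, the egg receptor for sperm IZUMO1, was low at both stages but still called, at 9.24 to 20.7 CPM (median 11.97) in oocytes and 0 to 0.544 CPM (median 0) in blastocysts. Cd9, a tetraspanin needed for sperm-egg fusion, went the other way, at 17.2 to 43.02 CPM (median 19.4) in oocytes and 1214 to 3279 CPM (median 2337) in blastocysts. It is also known as a surface protein of many epithelia. Fgf8 was at 4.88 to 8.49 CPM (median 6.16) in oocytes and at 0 CPM in every blastocyst, a difference of -2.88 that did not reach the threshold but at least a 356-fold lower level.

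Transcription factors of the growing oocyte followed. Of 13 members 9 were called lower (69.2%, against 9.42% of all symbols) and none higher (median -5.34). The homeobox genes Obox5, Obox1, Obox2 and Obox7 had differences of -9.98, -9.16, -9.13 and -7.96. Foxo3, which keeps primordial follicles dormant, was at 1234 to 2300.4 CPM (median 1956) in oocytes and 0 to 8.12 CPM (median 2.12) in blastocysts. Nobox, a factor of early follicle growth, was at 73.97 to 91.9 CPM (median 87.6) in oocytes and 0 to 0.207 CPM (median 0) in blastocysts. Sohlh2 was the member with a positive difference, 1.38, and its stages overlapped. Figla, the factor that drives zona gene transcription in growing oocytes, was itself low in the ovulated egg, at 1.39 to 3.50 CPM (median 1.93) in oocytes, and was not called.

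The subcortical maternal complex is a protein lattice under the egg surface that is needed for the first cleavages, and its genes are grouped here with other maternal effect genes. Of 24 members 22 were called lower (91.7%, against 9.42% of all symbols) and 1 higher, with a median of -7.17. The summed level of the list ran from 28439.7 to 31833 CPM in oocytes and 1892 to 6311 CPM in blastocysts. Bcl2l10, an anti-apoptotic relative of BCL2, was at 4345 to 6827 CPM (median 6196) in oocytes and 0.191 to 5.08 CPM (median 1.88) in blastocysts. Zbed3, a regulator of mitochondrial distribution in the complex, was at 7102 to 8896 CPM (median 8217) in oocytes and 0.663 to 10.4 CPM (median 4.16) in blastocysts. Neither gene overlapped between the stages, and both blastocyst medians were a few CPM.

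Other members with large differences were Zar1 (-9.27), which protects maternal RNA, Nlrp14 (-8.96), Npm2 (-8.83), a chaperone that helps remodel sperm chromatin, Nlrp4a (-8.82) and Nlrp9a (-8.31). Ooep, a core subunit, kept a measurable level in the embryo, at 354 to 713 CPM (median 531) in oocytes and 39.1 to 192 CPM (median 55.9) in blastocysts, and its difference of -3.08 was the smallest among the called members. Khdc3, another core subunit, was the one called higher, at 4.70 to 25.3 CPM (median 12.2) in oocytes and 239 to 1277 CPM (median 431) in blastocysts. Dppa3, also called Stella, which protects the maternal genome from oxidation of its methylcytosine, was high at both stages, at 3492 to 4780.3 CPM (median 4372) in oocytes and 1273 to 5705 CPM (median 2545) in blastocysts, and its stages overlapped.

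Several oocyte gene families lie in runs on the chromosomes, and their members were lower together. In the F-box family Fbxw, 14 of 22 shared members were lower and 1 higher, with sums of 6674 to 10453 CPM in oocytes and 98.2 to 339 CPM in blastocysts. Most of these stand in a run of 16 symbols called lower at chr9:108490607-109790660 (GRCm38.p6), which holds 36 shared symbols, 7 of them called higher. All 6 members of the Tcl1 family were lower, and they stand in a run of 9 symbols called lower among 15 shared symbols at chr12:104687740-105605511, which also holds Dicer1. Of the Nlrp family 11 of 17 were lower and none higher, and of the Oog family 4 of 4. In contrast all 3 Pramel genes were higher, with sums of 0 to 1.37 CPM in oocytes and 722 to 3074 CPM in blastocysts. Members of these families are close copies, so reads may be shared among them. Over all shared symbols 9.42% were lower and 12.6% higher. Some other families counted did not move together, such as Trim (6 of 60 lower and 6 higher) and Krt (2 of 42 lower and 4 higher). All these families were chosen after values were seen.

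Among genes of meiotic arrest and division the change was uneven. Of 23 measured members 8 were lower and 1 higher, and 14 were not called (median -1.56). These are 4.35% higher and 34.8% lower, against 12.6% and 9.42% of all symbols. Wee2, the oocyte kinase that restrains CDK1, was at 557 to 670.1 CPM (median 580.4) in oocytes and 0 to 1.85 CPM (median 0) in blastocysts. Fbxo43, also called Emi2, which blocks the anaphase-promoting complex at metaphase II, was at 187 to 317 CPM (median 222) in oocytes and 0 to 2.45 CPM (median 0) in blastocysts. Both had a blastocyst median of 0 CPM.

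Ccnb3 and Smc1b, a cyclin and a cohesin subunit of meiosis, had differences of -4.56 and -5.05. General mitotic genes were closer: Ccnb1 had medians of 2268 CPM in oocytes and 1045 CPM in blastocysts, and Cdc20, Plk1 and Ccnb2 had differences of -0.15, -0.51 and 0.29. Cdk1, the kinase of both divisions, was the member called higher, at 2.35 to 10.1 CPM (median 7.11) in oocytes and 107 to 368 CPM (median 257) in blastocysts. Leaving out oocyte library 4 or 5 brought the number called higher to 2. Pttg1, securin, one of the 10 most abundant oocyte symbols, was at 9529 to 11575 CPM (median 11414) in oocytes and 616 to 3661 CPM (median 962) in blastocysts, called lower but still high in the embryo.

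Genes that store, silence or remove maternal RNA were lower in part. Of 32 members 12 were lower, 1 higher and 19 not called (median -1.85). These are 3.12% higher and 37.5% lower, against 12.6% and 9.42% of all symbols. Btg4, the adaptor that brings the CCR4-NOT deadenylase to maternal RNA, was at 4474 to 6822 CPM (median 5323) in oocytes and 0.341 to 2.48 CPM (median 1.16) in blastocysts. Cnot6l and Cnot7, catalytic subunits of that deadenylase, had differences of -6.08 and -3.77, while Cnot6, a paralog, had -0.17 and the scaffold Cnot1 2.00.

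The RNA-binding proteins Dazl, Elavl2 and Cpeb1, which act on translation of stored RNA, had differences of -8.25, -7.06 and -5.59. Dazl was at 929 to 1530.4 CPM (median 1379.6) in oocytes and 0 to 18.6 CPM (median 3.20) in blastocysts. The decapping factor Dcp1a and the deadenylase subunit Pan3 were called lower as well (-5.11 and -3.50), whereas Parn, Ddx6, Xrn1 and Ythdf2 differed by 0.72, 0.78, -0.73 and 0.47 and overlapped. Tut4, which adds uridine to short tails, was called higher from a low base, at 0 to 1.75 CPM (median 0.107) in oocytes and 6.45 to 36.6 CPM (median 18.1) in blastocysts.

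The 15 largest falls by the naming rule were Rfpl4, Btg4, Jag1, Bcl2l10, C86187, D6Ertd527e, Oog3, Oosp1, Zbed3, Gdf9, Trim61, Omt2b, Oosp3, Bmp15 and Oas1d, with differences from -11.59 to -10.30. Rfpl4 was at 4959 to 7352 CPM (median 6395) in oocytes and 0.287 to 2.27 CPM (median 1.03) in blastocysts. Jag1, a Notch ligand, was at 3289 to 6449.8 CPM (median 4795) in oocytes and 0.130 to 8.09 CPM (median 0.800) in blastocysts. Over the 15 genes the highest blastocyst value was 10.4 CPM, for Zbed3, and the lowest oocyte value 1534 CPM, for Oosp3.

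Some abundant RNAs scarcely differed. By the rule for stable genes, 448 symbols reached 100 CPM at both stages with an SD below 0.5 in each, and the 10 with the smallest differences were Nmd3, Nop58, Psma7, Ilf2, Tcea1, Thoc7, Nmt1, Tmem60, Gtf2h1 and Spcs2. Psma7, a proteasome subunit, was at 842 to 1447 CPM (median 1414) in oocytes and 892 to 1825 CPM (median 1313) in blastocysts. Nop58, a box C/D snoRNP protein, was at 294 to 326 CPM (median 306) in oocytes and 196 to 462 CPM (median 301) in blastocysts.

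**Figure D3:**
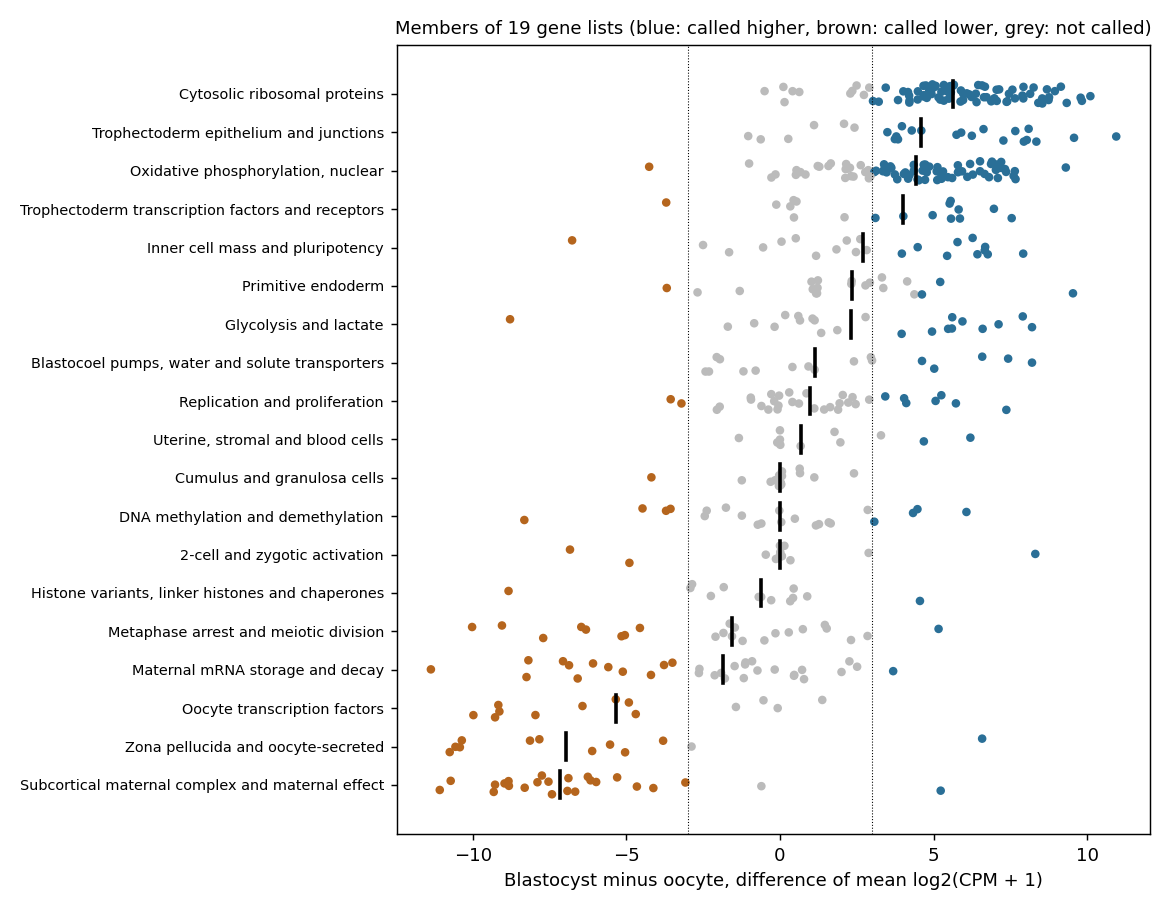
Each point is a list member, placed by the blastocyst minus oocyte difference of mean log2(CPM + 1) on the horizontal axis in 1 row per list (19 lists), with a black bar at the list's median and dotted lines at -3 and 3. Maternal lists have medians of -6.97, -5.34 and -7.17, and trophectoderm epithelium and ribosomal protein genes have 4.60 and 5.64.

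Transcription factors and receptors of the trophectoderm were mostly higher in blastocysts. Of 17 shared members 10 were higher and 1 lower (median 4.02, or 5.31 with the floor). These are 58.8% higher and 5.88% lower, against 12.6% and 9.42% of all symbols. Tead4, the partner of YAP1 that starts the trophectoderm program, was at 0 CPM in every oocyte library and at 21.8 to 73.1 CPM (median 51.1) in blastocysts, at least 413-fold higher. Gata2 was likewise at 0 CPM in every oocyte and at 30.8 to 109 CPM (median 60.5) in blastocysts, at least 497-fold higher. Eomes, a T-box factor of trophoblast stem cells, was at 0 to 1.25 CPM (median 0.451) in oocytes and 28.1 to 219 CPM (median 63.2) in blastocysts.

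Id2 and Klf5 had differences of 7.54 and 6.96. Yap1, the Hippo pathway coactivator, was the member called lower, at 169.9 to 475 CPM (median 308) in oocytes and 6.51 to 63.1 CPM (median 22.8) in blastocysts, while its relative Wwtr1, also called Taz, was at 0 to 0.250 CPM (median 0) in oocytes and 41.4 to 87.7 CPM (median 60.3) in blastocysts. The pair of coactivators thus differed in opposite directions. Elf5 and Hand1, factors of later trophoblast, had blastocyst medians of 3.40 and 0 CPM, and Fgfr2, the receptor for inner-cell FGF4, differed by -0.12.

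Epithelial genes of the trophectoderm were mostly higher. Of 25 shared members 19 were higher (76%, against 12.6% of all symbols) and none lower (median 4.60), and the list summed to 978 to 1159.5 CPM in oocytes and 5764 to 20193 CPM in blastocysts. Krt18, the filament partner of Krt8, was at 0 to 0.429 CPM (median 0) in oocytes and 491 to 6933 CPM (median 2539.9) in blastocysts. The tight junction genes Cldn4, Cldn6 and Cldn7 had differences of 5.90, 7.66 and 7.27, and F11r, the junctional adhesion molecule JAM-A, 8.09.

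Desmosome genes also differed, with Dsp at 5.74, Pkp2 at 3.84 and Dsg2 at 0 CPM in every oocyte and 47.1 to 167 CPM (median 97.3) in blastocysts. Not every junction gene was higher. Cdh1, E-cadherin, was at 492 to 645 CPM (median 557) in oocytes and 201 to 580.3 CPM (median 379) in blastocysts, and the tight junction plaque genes Cgn and Tjp1 had differences of -1.03 and 0.27. These stages overlapped. Gja1, a gap junction protein among the 15 largest rises, was at 0 CPM in every oocyte and 244 to 2196 CPM (median 988) in blastocysts, at least 9159-fold higher.

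Among pumps, channels and transporters that move fluid and solutes into the cavity, 5 of 17 shared members were higher (29.4%, against 12.6% of all symbols) and none lower (median 1.13). Aqp3, a water channel, was at 0 CPM in every oocyte and 29.6 to 287 CPM (median 94.2) in blastocysts, at least 940.0-fold higher. Slc2a3, the glucose carrier GLUT3, was at 0 to 0.749 CPM (median 0.389) in oocytes and 163 to 787 CPM (median 370.2) in blastocysts. Atp1b1, a subunit of the sodium pump, had a difference of 2.41 and was not called.

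Pluripotency genes of the inner cell mass were higher for 10 of 22 shared members and lower for 1 (median 2.72). These are 45.5% higher and 4.55% lower, against 12.6% and 9.42% of all symbols. Dppa5a, an RNA-binding protein of pluripotent cells, was at 29.5 to 64.1 CPM (median 37.4) in oocytes and 6376 to 23106 CPM (median 9471) in blastocysts. Tfcp2l1, a factor of naive pluripotency, was at 0.880 to 7.63 CPM (median 5.20) in oocytes and 243 to 1095 CPM (median 519) in blastocysts. Tdgf1, the NODAL coreceptor Cripto, and Utf1 were at 0 CPM in every oocyte and reached medians of 122 and 106 CPM in blastocysts, at least 1224-fold and 931-fold higher.

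Pou5f1, which encodes OCT4, was at 3.61 to 6.46 CPM (median 4.92) in oocytes and 4.85 to 116 CPM (median 33.1) in blastocysts, with overlapping stages and a difference of 2.61, and was not called. Sox2 was low at both stages (1.80 CPM in oocytes and 2.83 CPM in blastocysts, as medians). Klf17, an oocyte member of the KLF family, was lower, at 543 to 1124 CPM (median 816) in oocytes and 0 to 17.97 CPM (median 7.83) in blastocysts. Sall4 was present at both stages, with a difference of -1.65. Nanog, Fgf4 and Gdf3 are not in both tables. In the blastocyst table, scaled to the same total, Nanog was at 54.4 to 372 CPM (median 143), Fgf4 at 2.39 to 58.02 CPM (median 20.8) and Gdf3 at 24.6 to 94.6 CPM (median 61.1).

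Primitive endoderm genes were higher for 3 of 20 shared members and lower for 1 (median 2.33), that is 15% higher and 5% lower, against 12.6% and 9.42% of all symbols. The shares are thus near those of all symbols. Without blastocyst libraries 12 and 26, 5 were higher. Lrp2, the endocytic receptor megalin, was at 0 to 1.74 CPM (median 0) in oocytes and 535 to 1948 CPM (median 852) in blastocysts. Sparc and Fn1, matrix proteins, had differences of 5.22 and 4.62. Lamb1, a laminin chain, was the member called lower, at 554 to 1266 CPM (median 707) in oocytes and 14.8 to 287 CPM (median 52.7) in blastocysts.

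Of the factors that define the lineage, none was called. Gata6 was at 8.36 to 26.02 CPM (median 12.6) in oocytes and 47.7 to 247 CPM (median 92.3) in blastocysts, without overlap but with a difference of 2.78. Gata4 was at 20.7 to 83.6 CPM (median 31.8) in oocytes and 0 to 37.7 CPM (median 4.17) in blastocysts, so its median was lower in blastocysts. Sox17 was at 0.440 to 1.17 CPM (median 0.698) in oocytes and 0 to 48.8 CPM (median 1.53) in blastocysts and Pdgfra, the receptor used to sort these cells, at 0 to 1.74 CPM (median 0) in oocytes and 0.803 to 82.3 CPM (median 30.99) in blastocysts. Their blastocyst ranges were wide.

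Ribosomal protein genes were higher almost throughout. Of 87 members 77 were higher (88.5%, against 12.6% of all symbols) and none lower, with a median of 5.64. They summed to 3086 to 3767 CPM in oocytes and 49204 to 110308 CPM in blastocysts. Rps19, a small-subunit protein, was at 0 to 1.29 CPM (median 0.674) in oocytes and 884 to 2715 CPM (median 1367) in blastocysts, and Rpl3, a large-subunit protein, at 0 to 2.20 CPM (median 0.107) in oocytes and 629 to 1868 CPM (median 1333) in blastocysts. The 10 members not called included Rps15a and Rplp2, with differences of -0.50 and 0.63, whose stages overlapped.

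Nuclear genes of oxidative phosphorylation were higher for 56 of 80 members and lower for 1 (median 4.42). These are 70% higher and 1.25% lower, against 12.6% and 9.42% of all symbols. Uqcrc1, of complex III, was at 0 to 1.65 CPM (median 0.500) in oocytes and 185 to 2382 CPM (median 969) in blastocysts. Ndufs8 of complex I and Atp5o of the ATP synthase had differences of 7.64 and 7.36. Cox6b2, a testis form of a complex IV subunit, was the member called lower, at 133 to 194 CPM (median 155) in oocytes and 0 to 31.5 CPM (median 7.69) in blastocysts.

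Ribosomal protein genes have many processed copies in the genome, and the 2 tables may have counted reads that match several places differently. Of ribosomal protein genes with a pseudogene of the same name in RefSeq, 60 of 66 were higher (median 5.77), and of those without one 17 of 21 (median 5.03). The split goes by name, so genes without such a pseudogene may still have copies under other names. It therefore cannot separate genes with and without copies. Among oxidative phosphorylation genes the counts were 5 of 8 (median 3.77) and 51 of 72 (median 4.44). Ribosomal protein pseudogenes summed to 15.3 to 25.4 CPM over 140 symbols in the oocyte table and to 676 to 1180.3 CPM over 9 symbols in the blastocyst table. The part of read assignment in these differences was not tested. Called genes also differed in genomic length, introns included, with a median of 13649 bp for symbols called higher and 41826 bp for those called lower, against 21612.5 bp for all shared symbols with a position.

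Glycolysis genes were higher for 10 of 22 members and lower for 1 (median 2.33). These are 45.5% higher and 4.55% lower, against 12.6% and 9.42% of all symbols. Aldoa, aldolase A, was at 1.29 to 7.83 CPM (median 3.91) in oocytes and 480.3 to 2479 CPM (median 1179) in blastocysts. Gapdh was at 7.04 to 16.7 CPM (median 12.2) in oocytes and 310.2 to 1628 CPM (median 848) in blastocysts and Eno1 at 0.749 to 2.79 CPM (median 1.65) in oocytes and 47.4 to 756 CPM (median 277) in blastocysts. Ldhb, the heart-type lactate dehydrogenase subunit, was the member called lower, at 812 to 1688 CPM (median 1115) in oocytes and 0 to 26.6 CPM (median 1.12) in blastocysts. Pfkp, Pfkl and Slc16a1 overlapped between stages, with differences of -0.84, 0.60 and 1.06.

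Replication and proliferation genes were higher for 7 and lower for 2 of 34 members (median 0.99), 20.6% higher and 5.88% lower, against 12.6% and 9.42% of all symbols. Cdk4, the kinase partner of cyclin D, was at 0 to 0.643 CPM (median 0.0752) in oocytes and 78.1 to 320.2 CPM (median 203) in blastocysts. Tyms, thymidylate synthase, had a difference of 5.06, and Cdkn1a, the inhibitor p21, 5.25. The members called lower were Ccne2 (-3.56) and E2f1 (-3.20). Mcm7, Mcm10, Cdt1 and Mki67 had differences between -0.38 and -0.03 and overlapped.

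Of 22 genes of DNA methylation 4 were higher and 4 lower, with a median of 0.01. Each is 18.2% of the list, against 12.6% and 9.42% of all symbols. Tet3, the dioxygenase that oxidises methylcytosine in the zygote, was at 1839 to 2667 CPM (median 2332) in oocytes and 1.44 to 13.3 CPM (median 6.61) in blastocysts. Its relatives Tet2 and Tet1 were higher in blastocysts, Tet2 at 3.50 to 6.02 CPM (median 5.14) in oocytes and 178 to 754 CPM (median 415) in blastocysts and Tet1 at 7.05 to 12.8 CPM (median 9.77) in oocytes and 30.7 to 201 CPM (median 91.9) in blastocysts. Tet1, with a difference of 3.07, lost its call with TMM factors (2.90), with median-of-ratios factors (2.66), with a pseudocount of 5 (2.68) and without oocyte library 6 (2.99).

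The maintenance methyltransferase Dnmt1 was at 452 to 1062 CPM (median 678) in oocytes and 16.9 to 63.1 CPM (median 28.99) in blastocysts, and Uhrf1, which guides it to replicated DNA, at 583 to 826 CPM (median 615) in oocytes and 32.7 to 114 CPM (median 54.2) in blastocysts. Both were lower in every blastocyst than in any oocyte. Zfp57, which keeps imprints, had a difference of -3.71, and Trim28, its corepressor, 0.04. The de novo enzymes Dnmt3a and Dnmt3b had -2.45 and 2.86, neither of which reached the threshold. Tdg, the glycosylase that removes oxidised methylcytosine, was at 0 CPM in every oocyte and 8.42 to 45.7 CPM (median 21.9) in blastocysts. Its copy Tdg-ps2, joined through synonyms, was likewise at 0 CPM in every oocyte and at 3.19 to 39.9 CPM (median 21.6) in blastocysts. Reads may be shared between the copies, and the part of read assignment in the Tdg values was not tested.

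Of 24 listed histone and histone chaperone genes 13 have a shared symbol, so the shares cover only part of the list. Among these 13, 1 was higher, Chaf1b (4.56), and 1 lower, Npm2, each 7.69%, against 12.6% and 9.42% of all symbols. With TMM or median-of-ratios factors 3 were lower. H3f3b, a gene for the replacement histone H3.3, was at 2599.6 to 4087 CPM (median 3444) in oocytes and 1782 to 3990.1 CPM (median 2768) in blastocysts and did not separate the stages. H1f8, the oocyte linker histone, is spelled H1foo in the oocyte table and joins only through synonyms, where its stage means were 9184 and 2.82 CPM, a difference of -11.35. H1f8 was called lower. Of the others joined the same way, the variant H2az1, with means of 25.8 and 3495 CPM, was called higher, as were H2az2 (3.49) and H1f5 (4.38). H1f1, H1f2, H1f3, H1f4, H1f10 and H2ax were not called.

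Genes of the 2-cell embryo's first transcription were mostly at the detection limit. Of 13 shared members 2 were lower (Tcstv1, -6.83, and Tcstv3, -4.90) and 1 higher (Eif1a, 8.31), that is 15.4% lower and 7.69% higher, against 9.42% and 12.6% of all symbols. Zscan4d was at 0 to 3.14 CPM (median 0.0978) in oocytes and 0 to 0.233 CPM (median 0) in blastocysts, and 6 members were at 0 CPM in every oocyte. Zygotic activation takes place between the stages sampled here.

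Among the 15 largest rises were Timd2, Cd63, Fabp3, Actg1, Calcoco2, Krt18, Bhmt, Lgals1, Crxos, Adh1, Gja1, Rps19, Rpl3 and Gm2a, and the differences ran from 9.76 to 12.16. Timd2, a ferritin receptor, was at 0 CPM in every oocyte and 1461 to 11175 CPM (median 4452) in blastocysts, at least 42935-fold higher. Fabp3, a fatty acid carrier, was at 0 to 0.348 CPM (median 0) in oocytes and 2012 to 8209 CPM (median 3897) in blastocysts. Lgals1, a galectin, was at 0 CPM in every oocyte and 724 to 3562 CPM (median 2049.8) in blastocysts. Actin genes were also low in oocytes, with Actb at 114 to 220.4 CPM (median 166) in oocytes and 12980.0 to 73249 CPM (median 24319.5) in blastocysts and Actg1 at 0.348 to 3.22 CPM (median 0.939) in oocytes and 2674 to 9414 CPM (median 5096) in blastocysts. Ftl1, the ferritin light chain, had a difference of 9.01. Of all symbols called higher, 302 had 0 counts in every oocyte library.

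For 22 pairs of paralogs the log2 ratio of the 2 genes was measured inside each library, with 1 CPM added to each gene. For genes well above the added value the ratio hardly depends on scaling, but for genes near the detection limit it does. How each table was counted still enters the ratio. In 18 pairs the ratio was lower by at least 3 in blastocysts with no overlap, in none was it higher by as much, and 4 pairs were not called. Because the ratio is not corrected for gene length, its change between stages is read and not its sign. Some pairs set a germline gene against a more general paralog, such as Wee2/Wee1, and others, such as Ldhb/Ldha, Slc2a1/Slc2a3, Dnmt3a/Dnmt3b and Tet3/Tet1, set 2 widely used genes side by side. The order within a pair was chosen with earlier results known, so the shared direction is a description. The largest shift of the 22 pairs was in the lactate dehydrogenase pair Ldhb/Ldha, whose ratio was 9.67 to 10.25 in oocytes and -6.92 to -1.26 in blastocysts. Ldha in oocytes and, by its median, Ldhb in blastocysts were near the detection limit. The size of this shift thus depends on the added 1 CPM. The importin pair Kpna7/Kpna2 had ratios of 1.30 to 2.34 in oocytes and -11.17 to -8.41 in blastocysts.

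The kinase pair Wee2/Wee1 had 6.55 to 8.28 in oocytes and -5.38 to -3.40 in blastocysts, and the dioxygenase pair Tet3/Tet1 had 7.51 to 7.90 in oocytes and -5.28 to -2.03 in blastocysts. In the cap-binding pair Eif4e1b/Eif4e the ratio was -1.01 to 0.54 in oocytes and -9.17 to -6.42 in blastocysts, and in the poly(A)-binding pair Pabpc1l/Pabpc1 -1.79 to 0.07 in oocytes and -9.89 to -7.28 in blastocysts. Each of these pairs separated all 6 oocytes from all 28 blastocysts. The histone chaperones Npm2/Npm1 shifted by -9.26 while Npm1 itself differed by 0.43, so the shift lies in Npm2. The de novo methyltransferase pair Dnmt3a/Dnmt3b shifted by -5.30, although neither gene was called alone.

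Other called pairs had shifts between -10.62 (Bcl2l10/Bcl2l1) and -3.52 (Aurkc/Aurkb). The uncalled pairs were Ybx2/Ybx1 (-0.12), Cpeb1/Cpeb4 (-2.01), Patl2/Patl1 (1.32) and Stag3/Stag2 (2.21). Ybx2, known as an abundant RNA-binding protein of the oocyte, was at 6.22 to 25.4 CPM (median 14.1) in oocytes and 0.973 to 16.7 CPM (median 5.68) in blastocysts.

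**Figure D4:**
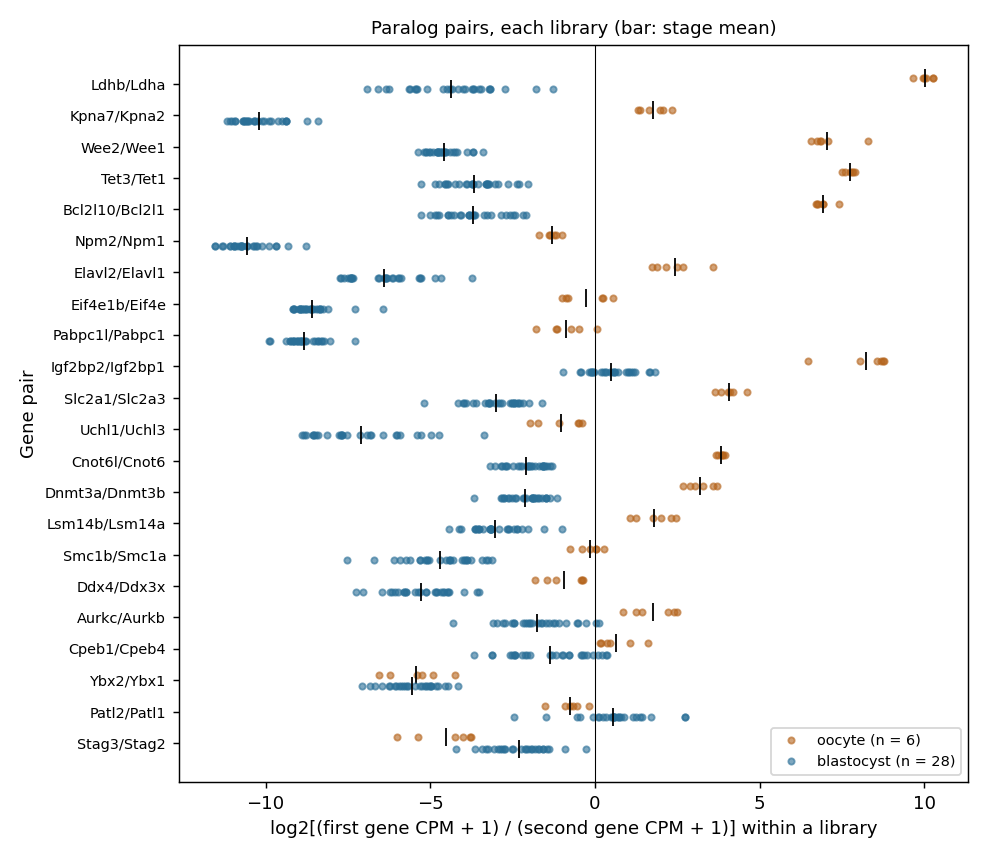
Each point is a library, with the log2 ratio of (first gene CPM + 1) to (second gene CPM + 1) on the horizontal axis for 22 gene pairs, oocytes in brown (n = 6) and blastocysts in blue (n = 28), and the bar is the stage mean. In 18 pairs the blastocysts lie to the left of all oocytes by at least 3 on average.

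The 28 blastocyst libraries also varied among themselves. Correlation of log2(CPM + 1) across them was examined for 10 gene pairs (100000 permutations, two-sided, Benjamini-Hochberg adjustment over the 10). The permutations treat libraries as independent, while the labels do not say whether they are single embryos, pools or from separate animals. Of the 10 pairs, 5 passed an adjusted p of 0.05 for Pearson's r. For Krt8 with Krt18, Pearson's r was 0.83 (permutation p = 1e-05, adjusted p = 5.0e-05) and Spearman's rho 0.90 (permutation p = 1e-05, adjusted p = 1.0e-04), where 1e-05 is the smallest p the permutations can give. Without the 2 libraries farthest from the median of Krt8, r was 0.84. The products of these genes pair into filaments.

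For Gata4 with Sox17, a pair of primitive endoderm factors, Pearson's r was 0.78 (permutation p = 1e-05, adjusted p = 5.0e-05) and Spearman's rho 0.72 (permutation p = 4.0e-05, adjusted p = 2.0e-04). Without the 2 farthest libraries r was 0.75. For Gata4 with Pdgfra, Pearson's r was 0.59 (permutation p = 9.4e-04, adjusted p = 0.00235) and Spearman's rho 0.57 (permutation p = 0.00171, adjusted p = 0.00427), and r was 0.56 without the 2 farthest. Blastocyst libraries with more Gata4 RNA thus tended to have more Sox17 and Pdgfra RNA.

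The trophectoderm factor Cdx2 went with Pou5f1, the pluripotency factor, across blastocysts: Pearson's r was 0.68 (permutation p = 7.0e-05, adjusted p = 2.3e-04) and Spearman's rho 0.68 (permutation p = 1.2e-04, adjusted p = 4.0e-04), and r was 0.60 without the 2 farthest. For Fgf4 with its receptor gene Fgfr2, Pearson's r was 0.47 (permutation p = 0.0110, adjusted p = 0.0220) and Spearman's rho 0.40 (permutation p = 0.0370, adjusted p = 0.0617), so the rank correlation missed the threshold, and r was 0.43 without the 2 farthest. Depth and the number of detected symbols moved with some of these genes: r with the number of symbols was 0.52 for Gata4, 0.37 for Sox17, 0.59 for Pdgfra, 0.54 for Pou5f1, 0.39 for Cdx2, 0.28 for Krt8 and 0.55 for Krt18, and r with depth (reads in shared symbols) was 0.46 for Krt8 and 0.49 for Krt18. Their part in the correlations was not tested, and the labels name no batch.

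Cdx2 with Gata3 did not pass: Pearson's r was 0.27 (permutation p = 0.159, adjusted p = 0.227) and Spearman's rho 0.42 (permutation p = 0.0259, adjusted p = 0.0519). Without the 2 libraries farthest from the median of Cdx2 its r was 0.60, so the pooled value depends on those libraries. Cdx2 with Nanog, Nanog with Gata6, Fgf4 with Nanog and Zp3 with Nlrp5 had r of -0.09, 0.04, -0.14 and 0.29. Their adjusted permutation p were 0.727, 0.828, 0.578 and 0.227. Nlrp5 was at 0 to 0.779 CPM (median 0) in blastocysts, so the r of Zp3 with Nlrp5 rests on values near the detection limit. A p above the threshold does not show that these genes vary independently.

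**Figure D5:**
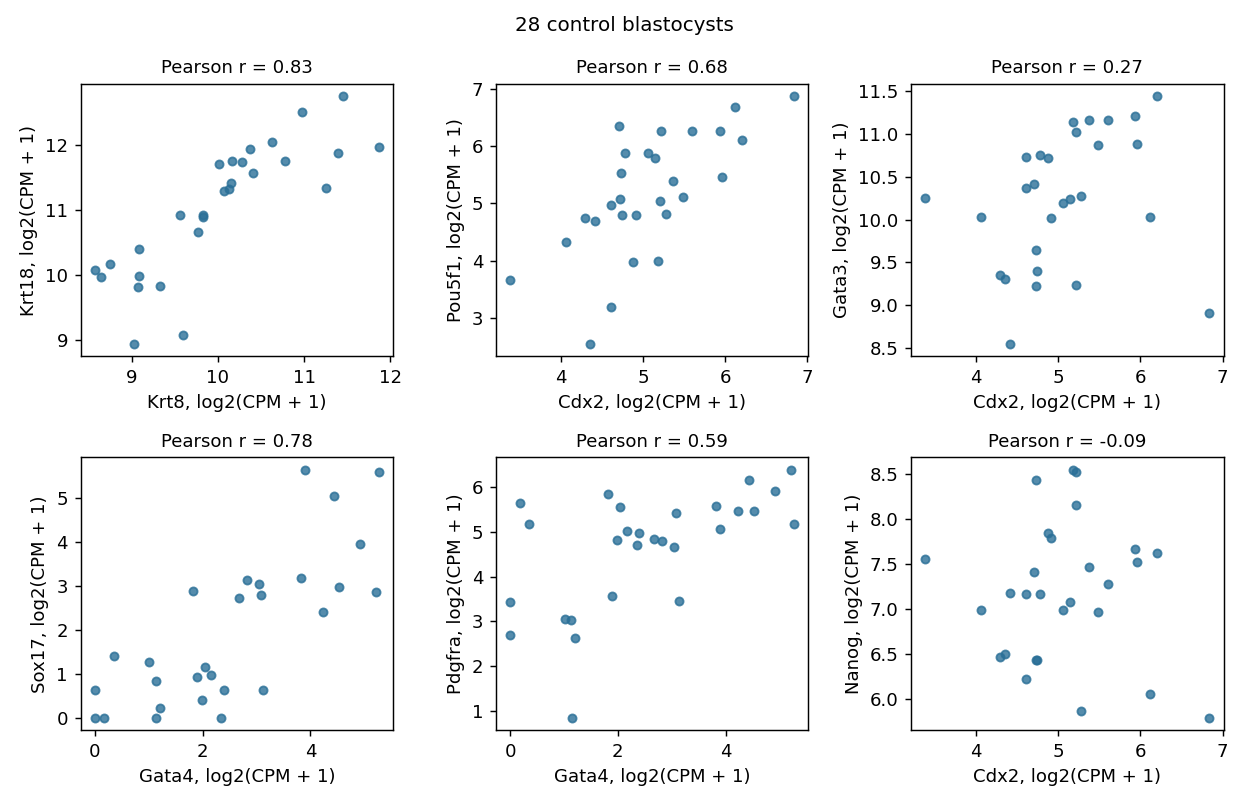
Each point is 1 of 28 control blastocyst libraries, with log2(CPM + 1) of 2 genes on the axes of each of 6 panels and Pearson's r above. Krt8 with Krt18 (0.83) and Gata4 with Sox17 (0.78) rise together, while Cdx2 with Nanog (-0.09) shows no slope.

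Cumulus and granulosa genes summed to 16.7 to 25.96 CPM in oocytes and 1.83 to 27.7 CPM in blastocysts, and 1 of 17 was called lower (5.88%, against 9.42% of all symbols), Cyp19a1, the aromatase gene, at 13.7 to 22.9 CPM (median 19.2) in oocytes and 0 to 2.50 CPM (median 0) in blastocysts. Fshr and Ptx3 were at 0 CPM in every library, Foxl2 and Inhbb at 0 in every oocyte. The part of cumulus RNA in the oocyte values was not tested. Of 11 shared uterine, stromal and blood cell genes 2 were higher (18.2%, against 12.6% of all symbols), Wfdc2 at 24.7 to 145 CPM (median 70.8) in blastocysts and Cd74 at 1.02 to 106 CPM (median 32.03) in blastocysts, both at 0 CPM in every oocyte. In blastocysts 3 of the 11 were at 0 CPM in every library (Ptprc, Col3a1 and Hbb-bs), while Hba-a1, a haemoglobin gene, was at 0 to 12.8 CPM (median 0) in oocytes and 0.203 to 119 CPM (median 4.36) in blastocysts. Pecam1, an endothelial gene that made up most of the oocyte sum, was at 42.2 to 64.1 CPM (median 48.3) in oocytes and 2.80 to 50.1 CPM (median 22.9) in blastocysts. The list summed to 42.2 to 65.5 CPM in oocytes and 99.98 to 248 CPM in blastocysts.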

How the data were processed

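RNA of 6 control oocyte and 28 control blastocyst libraries was compared over 17947 shared symbols. The oocyte values are raw counts per gene symbol as deposited. The blastocyst values are deposited as a normalised signal whose basis is not given in the sources used here. Judged from the values, they are estimated counts multiplied by a factor of each library. Of the values above 0, 89.3% to 93.4% were whole multiples of 1 step per library within 0.005, and the rest were not. Per the submitters' processing notes, the tools named are HTSeq 0.12.4, STAR 2.7.6a, Bowtie2, TopHat, Trimmomatic 0.32 and Trim Galore 0.6.4 and the builds mm10 and GRCm38, with no statement of which made which table. Spellings of 24 oocyte symbols look like dates and matched nothing. The library name of oocyte 6 reads smart_seq3 in the labels and smart_seq2 in the table.

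Each library was scaled to CPM (counts-per-million) over the shared symbols, and stages were compared on log2(CPM + 1) with the rule given in the text, without a filter on low values and without a test. The r between libraries used a minimum mean level. Folds against a stage at 0 use a floor of 3 counts over the stage, and floors and intervals cover counting error only, since reads without molecular identifiers are not independent molecules. Correlations used 100000 permutations (scipy 1.17.1, numpy 2.4.6, Python 3.11.15). TMM factors came from edgeR 4.0.16 in R 4.3.3. RefSeq GRCm38.p6 gave positions for 99.5% of the shared symbols and promoter windows for 78.5%.

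The members and gene lists were chosen with earlier results of these data known. Named by rule were the 7 markers, the 15 largest called changes in each direction with a stage mean of at least 100 CPM, up to 6 called members of each list, all paralog pairs, the 10 most abundant symbols of each stage and the 10 most stable ones. Other list members were named after their values were seen, and some genes the rule names are not reported here. Alternatives were other scalings, pseudocounts, thresholds, a filter, ranks, synonyms and leaving out libraries. The 34 hCG columns of both tables and a further RNA table were not used here.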

Additional observations from a re-analysis of the deposited data

Results flagged for a closer look

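Levels in the oocyte libraries were examined for 122 named genes with at least 10 counts on average, and in 11 of them 1 of the 6 libraries lay far from the other 5 by Dixon's criterion, which chance meets about 1 time in 20. Oocyte 3 held 6 of them. Its Astl level was 668 CPM against 143 to 332 in the others, Zp3 275 against 101 to 164, Cpeb1 361 against 205 to 244, Aurkb 35.8 against 13.6 to 19.9 and Dppa5a 64.1 against 29.5 to 37.6. Rdx, in contrast, was lower there, at 4728 CPM against 5526 to 5869. Oocyte 3 was the most deeply sequenced oocyte library, with 6910882 counts, and the part of depth was not tested.

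Oocyte 4 held 4. Its Nlrp5 level was 1151 CPM against 540.3 to 734 in the others and Wee2 670.1 against 557 to 584, while Bcl2l10 was at 4345 against 6052 to 6827 and Psma7 at 842 against 1378 to 1447. This library had the second lowest total, 2972094 counts. In oocyte 5, Tcstv3 was at 18.01 CPM against 31.0 to 37.8. The stages overlap for Psma7 and Aurkb and for none of the other 9 genes.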

How the results depend on the processing

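The 2264 higher and 1691 lower calls depended most on the threshold and the pseudocount. A pseudocount of 5 gave 1300 and 976, a difference of at least 4 gave 1479 and 961, and a difference of at least 2 gave 2950 and 2569. Other scalings moved the counts by less than 1.5 times but shifted the balance: 2158 and 1844 with TMM factors, 2017 and 2080 with median-of-ratios factors, so that the higher share went from 57.2% to 49.2%. Over symbols of at least 5 CPM the median difference moved by -0.17 and -0.43 under these scalings. Leaving out 1 oocyte library gave 2256 to 2290 and 1677 to 1725, and leaving out 1 blastocyst library 2253 to 2352 and 1681 to 1702. No call turned direction under the alternatives run.

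Among genes named by rule, Tet1 lost its call under other scalings, and a pseudocount of 5 also ended those of Cd74 (2.66), Cdx2 (2.90), Cyp19a1 (-2.19), Ehmt2 (2.56), Pabpc1l (-2.26), Tcstv3 (-2.81) and Tdg (2.403), since it compresses low values. The 18 called pairs numbered 18 under each alternative run. Of the correlations 5 passed with TMM factors and 5 without blastocyst libraries 12 and 26, which were singled out after seeing the data. No paired analysis was possible because the stages were compared without a test and replicate numbers of separate tables tie no oocyte to a blastocyst. Depth limits the low oocyte values: 3 counts over the 6 libraries correspond to 0.117 CPM.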
